A study of Mus musculus with 12 samples.

Results

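The 48 interferon-stimulated and interferon-pathway genes described here were taken by gene symbol from a table of 43279 genes, and all 48 symbols were found in it. They were grouped by role into 4 interferon receptor chains, 5 interferon regulatory factors, 4 nucleic acid sensors, 17 antiviral effectors, 7 genes of the ISG15, ubiquitin and ADP-ribosylation systems, 7 interferon-inducible GTPases and 4 others. Polyadenylated RNA was sequenced from 1000 cells sorted from the marrow of each mouse, 5 naive adult Osmr-/- mice and 6 naive adult wild-type C57BL/6 mice (WT), with 1 library per mouse made by full-length cDNA amplification (SMART-Seq v4). The gate, negative for lineage markers, FLT3 and CD48 and positive for KIT and SCA1, holds long-term and short-term repopulating hematopoietic stem cells and was not divided further. Osmr encodes the receptor subunit for the cytokine oncostatin M, and the knock-out was described as a way to ask how a niche without this receptor alters stem cells. The strain background, sex and housing of the Osmr-/- mice were not given, and the labels name no interferon treatment or infection. Libraries are named by genotype and by the number in their label, Osmr-/- 1, 2, 3, 5 and 6 and WT 1 to 6.

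Interferons signal through paired receptor chains and JAK kinases to STAT and IRF transcription factors, which bind interferon-stimulated response elements (ISRE) and gamma-activated sequences (GAS) near the genes they switch on. The products recognise foreign nucleic acid, block entry, translation and replication of viruses, and tune the pathway itself. In the marrow, interferon is known to bring dormant stem cells into cycle, and stem cells are known to carry part of the programme, the Ifitm genes among it, without any infection.

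Library totals were 9.50 to 11.2 M (mega) reads in Osmr-/- and 9.89 to 22.1 M in WT, so that 3 reads, the floor used here, equalled 2.93 to 3.87 normalised counts in Osmr-/- and 1.56 to 3.10 in WT. Osmr itself had 4 reads over the Osmr-/- libraries and 13 over the WT libraries (log2 difference -0.13, exact two-sided permutation p = 0.848), too few to check the genotype labels. All 16 genes of the stem cell list were above the filter, 9 with a log2 fold change above 0 and 7 below. Kit, the receptor used in the gate, had 3666 to 5183 normalised counts in Osmr-/- and 3312 to 4512 in WT. Procr lay the other way, with 236 to 549 in Osmr-/- and 374 to 713 in WT. Summed counts of 17 erythroid genes were 13374 to 20146 in Osmr-/- and 20210 to 63390 in WT (14 of 15 tested below 0). The erythroid factor gene Klf1 was at 0 to 127 in Osmr-/- and 160.3 to 524 in WT. The globin gene Hbb-bt went the other way, at 707 to 1567 in Osmr-/- and 150 to 697 in WT. Summed counts of 10 neutrophil genes were 4689 to 29113 in Osmr-/- and 3415 to 5510 in WT, and the highest value was that of Osmr-/- 3, where S100a8 reached 10780. Summed counts of 12 dendritic cell genes were 2273 to 2769 in Osmr-/- and 1934 to 3294 in WT (5 tested, 1 above 0 and 4 below). Bst2 and Irf8, at log2 fold changes of -0.46 and -1.58, are among those below 0 and also belong to the interferon genes described here. The list is therefore not independent of them. Much of the sum came from Tcf4, at 1408 to 1810 in Osmr-/- and 841 to 1922 in WT. Of the 12 dendritic cell genes, 3 were at 0 in all libraries, Siglech and Itgax among them. The part of these cells in the differences below was not tested except by leaving each library out.

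The promoter windows of 6 genes are shown. They belong to the Ifitm cluster, to Ifih1 and Gbp7, and to Isg15, which has the densest run of response elements. Ifih1 and Gbp7 are 2 of the other genes at an unadjusted p under 0.05, and the windows of Ifit2 and Trim30a, also under it, are not shown. Each window runs from 250 bases before to 50 after the RefSeq start on GRCm38.p6, read 5′ to 3′ along the gene, and capitals mark GAAANNGAAA (the ISRE core) and TTCNNNGAA (the GAS core) on either strand. The windows are chr7:140967826-140968125 (plus strand) for Ifitm1, chr7:140955912-140956211 (minus) for Ifitm2, chr7:141010695-141010994 (minus) for Ifitm3, chr2:62646206-62646505 (minus) for Ifih1, chr3:142530086-142530385 (plus) for Gbp7 and chr4:156200769-156201068 (minus) for Isg15.
Ifitm1: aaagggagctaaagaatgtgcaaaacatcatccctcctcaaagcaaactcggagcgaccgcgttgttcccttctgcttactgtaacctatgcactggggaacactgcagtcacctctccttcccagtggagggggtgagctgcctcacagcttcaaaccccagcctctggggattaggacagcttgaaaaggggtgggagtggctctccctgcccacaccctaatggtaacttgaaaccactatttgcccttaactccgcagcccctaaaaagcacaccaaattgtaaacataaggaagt
Ifitm2: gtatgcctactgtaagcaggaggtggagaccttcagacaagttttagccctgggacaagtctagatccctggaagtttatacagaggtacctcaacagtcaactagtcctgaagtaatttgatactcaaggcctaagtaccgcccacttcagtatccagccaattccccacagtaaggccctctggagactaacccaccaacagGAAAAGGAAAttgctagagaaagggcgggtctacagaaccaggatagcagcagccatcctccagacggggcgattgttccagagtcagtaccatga
Ifitm3: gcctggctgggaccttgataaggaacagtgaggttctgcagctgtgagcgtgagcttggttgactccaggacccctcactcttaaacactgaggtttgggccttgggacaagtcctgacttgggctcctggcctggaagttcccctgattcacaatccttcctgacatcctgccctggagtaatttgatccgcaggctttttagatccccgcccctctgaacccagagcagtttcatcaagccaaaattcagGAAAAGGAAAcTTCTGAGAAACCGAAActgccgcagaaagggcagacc
Ifih1: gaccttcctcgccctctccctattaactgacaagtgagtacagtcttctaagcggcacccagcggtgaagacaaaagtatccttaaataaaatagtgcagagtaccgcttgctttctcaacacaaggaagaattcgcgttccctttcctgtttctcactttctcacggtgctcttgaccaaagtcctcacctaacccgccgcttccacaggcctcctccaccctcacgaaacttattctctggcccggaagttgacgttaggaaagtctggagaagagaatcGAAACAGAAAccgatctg
Gbp7: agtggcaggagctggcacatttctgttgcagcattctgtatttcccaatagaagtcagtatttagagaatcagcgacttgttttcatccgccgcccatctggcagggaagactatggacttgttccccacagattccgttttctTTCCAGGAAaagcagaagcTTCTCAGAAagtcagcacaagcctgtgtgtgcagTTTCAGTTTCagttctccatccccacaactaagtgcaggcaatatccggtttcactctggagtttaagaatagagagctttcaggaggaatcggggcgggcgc
Isg15: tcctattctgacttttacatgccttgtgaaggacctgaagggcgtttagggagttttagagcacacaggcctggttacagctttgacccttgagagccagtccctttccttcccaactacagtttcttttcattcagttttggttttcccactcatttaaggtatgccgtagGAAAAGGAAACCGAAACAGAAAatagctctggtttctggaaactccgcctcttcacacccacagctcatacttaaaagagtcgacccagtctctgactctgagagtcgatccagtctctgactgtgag
Ifitm1 held neither string in its window. That window begins after the GENCODE start of the gene (140967221), so the sequence before that start was not searched. Ifitm2 held 1 ISRE core whose first base lay at -46 from the start, and Ifitm3 held 2, at 3 and 20, the second overlapped by a GAS core that began at 14. In Ifih1 the single ISRE core began at 33, after the start. Gbp7 had an ISRE core on the opposite strand at -53 and 2 GAS cores at -106 and -87. Isg15 carried 3 overlapping ISRE cores at -78, -72 and -66, which print as 1 run of capitals.

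Levels of the 48 genes differed widely. Per kilobase of exon, which allows levels of different genes to be compared, Ifitm1, Ifitm3 and Ifitm2 led in Osmr-/- with means of 47103, 45695 and 35553 normalised counts, and in WT the order was Ifitm3, Ifitm2 and Ifitm1 with 30683, 26230 and 23633. The SDs of 4421 to 8418 in Osmr-/- and 7247 to 11857 in WT leave neighbours in this order indistinct. The next gene, Rtp4, had 1206 per kilobase in Osmr-/- and 1266 in WT, and the lowest, Irf8, had 2.31 in Osmr-/- and 3.25 in WT. The 3 Ifitm genes made up 73.9% to 82.3% of all normalised counts of the 48 genes in Osmr-/- libraries and 63.2% to 77.8% in WT libraries.

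**Figure D1:**
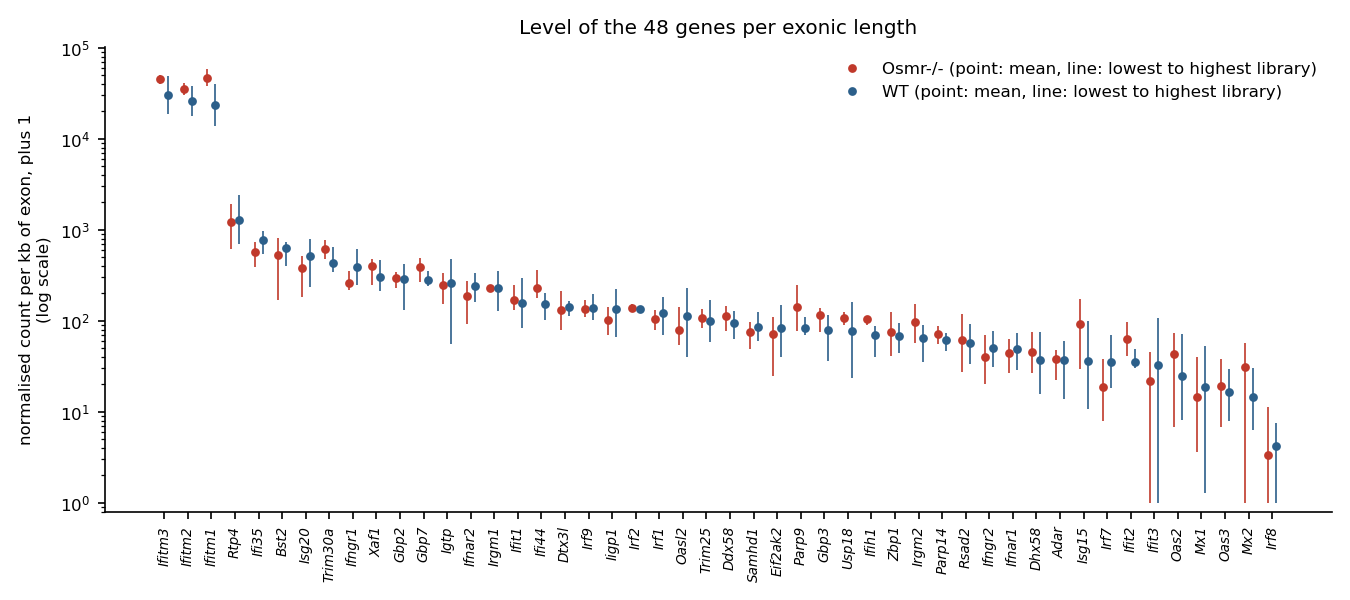
Mean normalised count per kilobase of exon (plus 1, log scale) of each of the 48 genes, with a line from the lowest to the highest library, in 5 Osmr-/- and 6 WT libraries. The 3 Ifitm genes stand far above Rtp4 and the rest, and lines that reach 1 mark genes with a library at 0 (Ifit3, Mx2 and Irf8).

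None of the 48 genes passed an adjusted p of 0.05 between Osmr-/- and WT (limma on log2(normalised count + 1), Benjamini-Hochberg over all 13358 genes tested), against 0.00749% of all tested genes higher and 0.015% lower. Every member passed the filter on low counts. At an unadjusted p under 0.05, 7 of 48 lay higher in Osmr-/- (14.6%) and 0 lower, against 7.5% and 10.5% of all genes. The 7 were Ifitm1, Ifih1, Ifit2, Ifitm3, Trim30a, Gbp7 and Parp9. The count was 3 without Osmr-/- 3, the library with the neutrophil transcripts, and 4 without WT 5, where the counts over all genes in both directions were 1781 and 2031, against 2401 with every library. For 1 member, Ifih1, the Osmr-/- libraries lay wholly above WT, and 0 members lay wholly below, against 1.09% and 1.42% of all genes. By the authors' deposited table, 1 member (Ifitm1) was higher and 0 were lower at the same adjusted threshold, against 1.67% and 2.79% of the genes it tested. The members' median log2 fold change was 0.08 with 28 of 48 above 0, and that of all tested genes was -0.05 with 46.8% above 0. In bulk RNA, fewer cells of a type and less RNA per cell cannot be told apart.

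**Figure D2:**
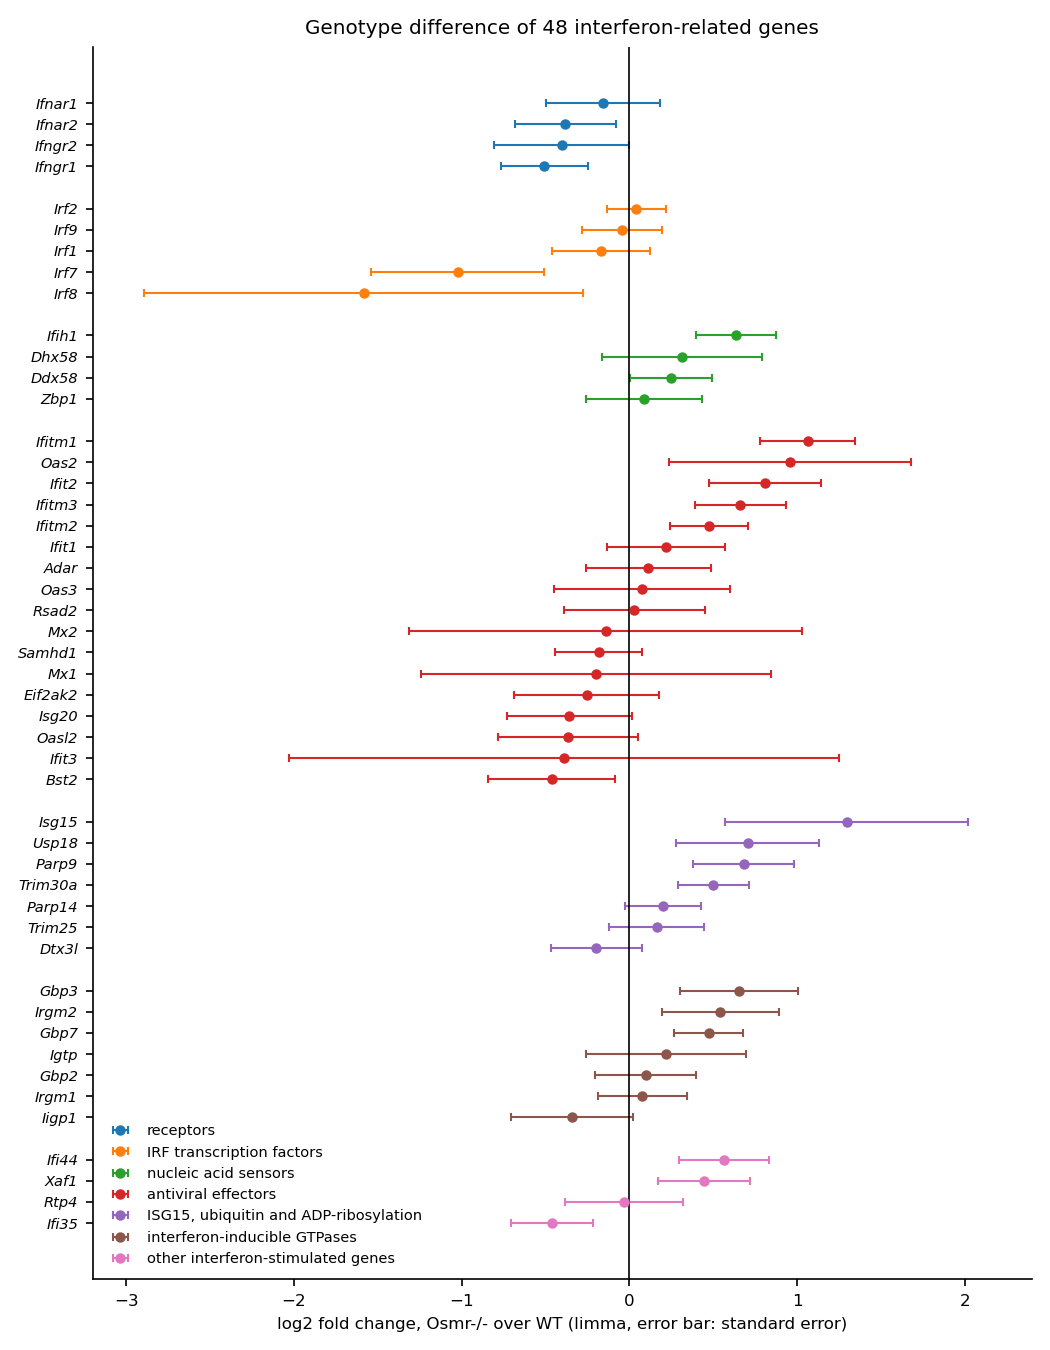
The log2 fold change of each gene, Osmr-/- over WT, with its standard error from limma, grouped by role. Receptors lie left of 0, sensors right of it, and the error bars of Irf8, Ifit3, Mx1 and Mx2 are the widest.

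The 3 Ifitm genes, whose small membrane proteins keep enveloped viruses from fusing with the cell, gave the largest differences in normalised count among the 48. Ifitm1 had 54940.2, 64568, 52722, 43297 and 42126 normalised counts in Osmr-/- 1, 2, 3, 5 and 6, and in WT a lowest, median and highest value of 15140.2, 24918 and 43651. In 3 Osmr-/- libraries the level was above every WT library, and WT 3 lay above Osmr-/- 5 and 6. The log2 fold change was 1.06 (SE 0.281), a 2.09-fold higher level, with an adjusted p of 0.105 by limma. In the authors' deposited table, its sign turned to Osmr-/- over WT, Ifitm1 had a log2 fold change of 0.92 with an adjusted p of 0.0169. DESeq2 on the recovered reads gave 1.00 with an adjusted p of 0.0171, and edgeR gave 0.99 with an adjusted p of 0.110.

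Ifitm3 had 30564, 33790.4, 28897, 34255 and 27401 in Osmr-/- 1, 2, 3, 5 and 6, and 12598, 20812 and 33449.7 as the WT lowest, median and highest. Every Osmr-/- library was above the WT median, and WT 3 stood among them. The log2 fold change was 0.66 (SE 0.272, adjusted p 0.231). Ifitm2 had 25232, 26994, 20393, 23825 and 19991 in the same 5 Osmr-/- libraries and 11552, 17396 and 24999 in WT (log2 fold change 0.47, SE 0.232, adjusted p 0.299). WT 3 again lay within the Osmr-/- range, above 3 of 5 Osmr-/- libraries. The Ifitm genes sit side by side on chromosome 7 (140954837 to 141266481 with Irf7, GRCm38) and resemble each other in sequence. Of the exonic length of Ifitm2, 40.9% is shared with the gene model Gm45717. Reads that match more than 1 of these may have been left out or misassigned, and how the counting treated them was not given.

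Within WT, Ifitm levels differed between libraries that also differed in another transcript. WT 4 and WT 5 had the lowest Ifitm1, and also the highest counts of the nuclear RNA Malat1, a gene chosen after its values were seen, at 224267 and 230983. WT 3, with the highest Ifitm1 of its group, had 51523 of Malat1. WT 1, WT 2 and WT 6 had 9975, 34784 and 175463, with Ifitm1 nearer the WT median, so that Malat1 was higher in all of WT 4 to 6 than in WT 1 to 3. Osmr-/- libraries had 72916 to 173014. The part of this in the Ifitm difference was not tested. The 48 genes together took 1.07% to 1.21% of reads in Osmr-/- and 0.652% to 1.03% in WT, ranges that do not overlap. In normalised counts their sums did overlap, at 114170 to 152318 in Osmr-/- and 62173 to 131284 in WT, where WT 3 lay above Osmr-/- 3 and 6. Without the 3 Ifitm genes the sums were 24652 to 35723 normalised counts in Osmr-/- and 21302 to 34968 in WT.

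**Figure D3:**
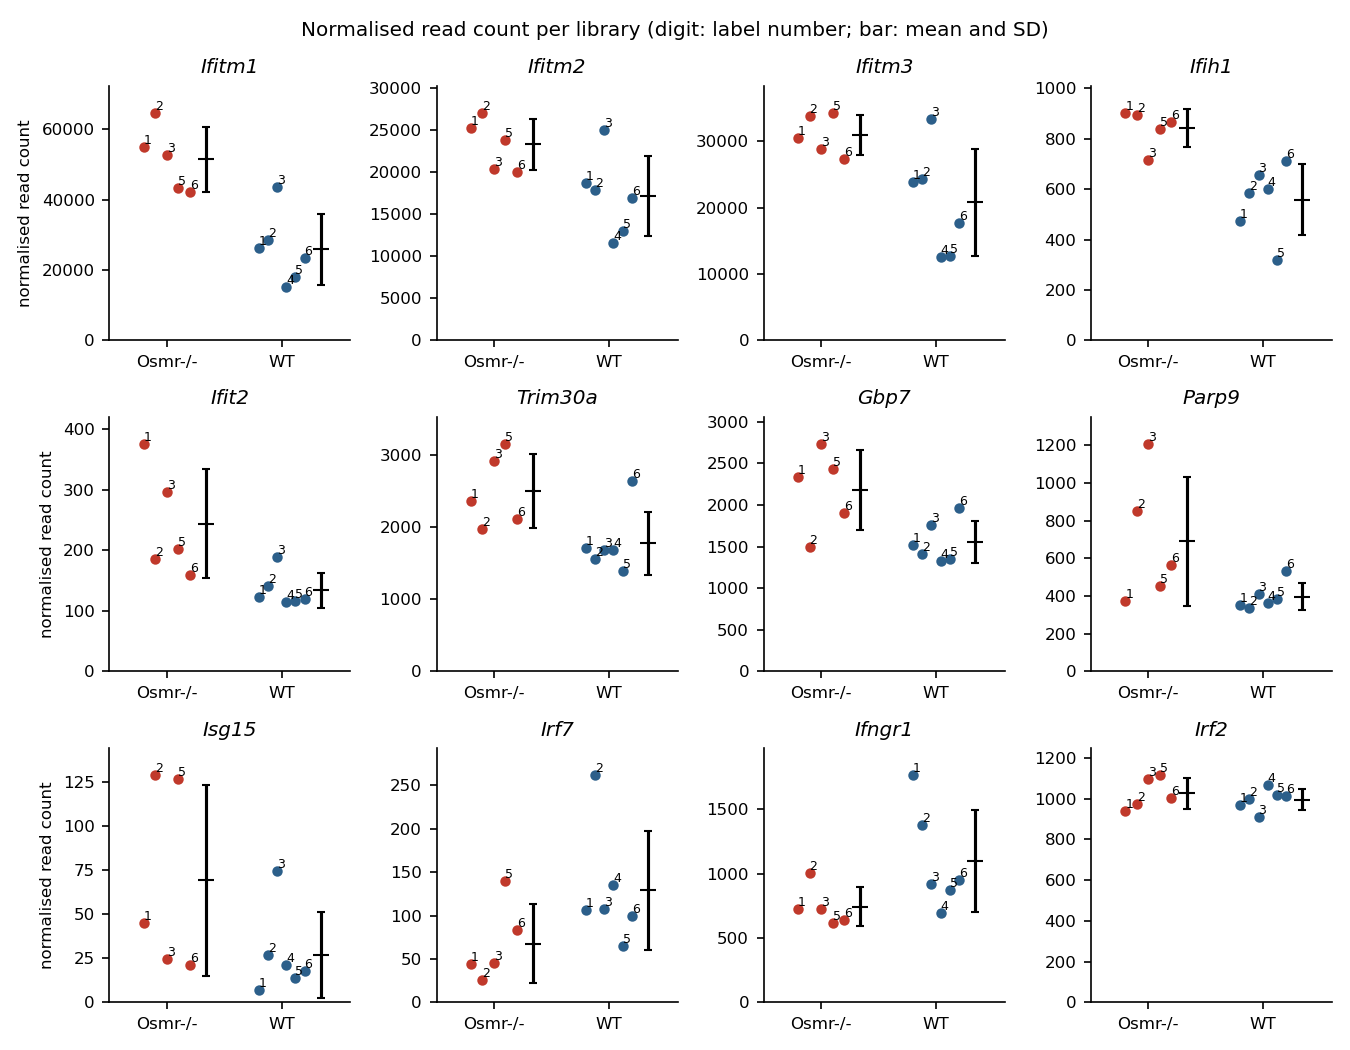
Normalised read count in each library for 12 of the genes, Osmr-/- in red and WT in blue, each digit the number in the library's label, with mean and SD beside each group. Ifih1 is the gene without overlap, WT 3 reaches the Osmr-/- range for Ifitm1, Ifitm2 and Ifitm3, and Irf2 is flat.

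All 4 receptor chains had a log2 fold change below 0 (median -0.39), and none passed an unadjusted p of 0.05. Ifngr1, the ligand-binding chain for interferon gamma, had 727, 1009, 729, 619.7 and 642 in the Osmr-/- libraries and 695, 935 and 1766 as WT lowest, median and highest. In 4 of 5 Osmr-/- libraries the level was below the WT median, and the groups overlapped (log2 fold change -0.51, SE 0.258, adjusted p 0.317). Its partner Ifngr2 had 151, 91.1, 72.2, 259 and 154 in Osmr-/- and 113, 173 and 286 in WT (log2 fold change -0.40). Ifnar1 and Ifnar2, the chains for type I interferon, had log2 fold changes of -0.16 and -0.38. Ifnar2 was lowest in Osmr-/- 3, with 304 normalised counts, and without that library its log2 fold change was -0.15 and that of Ifnar1 was 0.0083. The 3 genes Ifnar2, Ifnar1 and Ifngr2 neighbour each other on chromosome 16 (91372783 to 91565623).

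Among the interferon regulatory factors, Irf2 was the steadiest of all 48 genes. This factor, known from mouse knock-outs to hold type I interferon signalling in check in stem cells, had 941, 974, 1098, 1115 and 1002 in Osmr-/- and 908, 1006 and 1065 in WT. Its within-group SD was 0.09 on the log2 scale, and the log2 fold change was 0.04 (SE 0.176). Irf7, the factor that amplifies type I interferon, had 44.2, 26.0, 45.1, 140.0 and 82.9 in Osmr-/- and 64.6, 107 and 261 in WT. Osmr-/- 1, 2 and 3 lay below every WT library and Osmr-/- 5 lay above the WT median (log2 fold change -1.02, SE 0.514, adjusted p 0.309). Irf1, which is activated early by interferon gamma, had a log2 fold change of -0.17, and Irf9, the DNA-binding subunit of the type I interferon transcription complex, had -0.04. Irf8, a factor of monocytes and dendritic cells, was barely detected, with 0, 0, 2, 71 and 6 reads in Osmr-/- 1, 2, 3, 5 and 6 and 0 to 60 in WT, and its log2 fold change of -1.58 (SE 1.31) depends on the pseudocount.

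The 4 nucleic acid sensors all had log2 fold changes above 0, with a median of 0.28, although that of Zbp1 was -0.13 without Osmr-/- 6 and -0.030 without WT 5. Ifih1 encodes MDA5, the sensor of long double-stranded RNA. It had 902, 893, 717, 840.1 and 867 normalised counts in Osmr-/- 1, 2, 3, 5 and 6, and 319, 594 and 711 as WT lowest, median and highest. The lowest Osmr-/- library, number 3, was just above the highest WT library, number 6, so the groups did not overlap. The log2 fold change was 0.64 (SE 0.239, 1.55-fold), with an adjusted p of 0.194 by limma and 0.0985 in the authors' deposited table. Ddx58, which encodes the sensor RIG-I, had 742, 536, 842, 1021 and 764 in Osmr-/- and 438, 659.6 and 885 in WT, overlapping, at a log2 fold change of 0.25. Dhx58, the sensors' regulator LGP2, had a log2 fold change of 0.31, and Zbp1, the sensor of Z-form nucleic acid that can trigger necroptosis, had 0.09. Neither separated the groups, and Dhx58 reached 246 in Osmr-/- 3 and 244 in WT 6.

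The antiviral effectors divided evenly, with 9 of 17 above 0, 8 below 0 and a median of 0.03 on the log2 scale. Ifit2, of the family that binds foreign RNA and blocks its translation, had 375, 186, 296, 203 and 159 in Osmr-/- and 114, 122 and 188 in WT. In 3 Osmr-/- libraries it lay above WT, and WT 3 was above Osmr-/- 2 and 6 (log2 fold change 0.81, SE 0.335, adjusted p 0.232). Its neighbours on chromosome 19 (34550694 to 34650009) were Ifit1, with a log2 fold change of 0.22, and Ifit3, with -0.39. Ifit3 was at 0 in Osmr-/- 2 and 3 and in WT 3 and 5, and its standard error was 1.64.

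The 3 oligoadenylate synthetase family genes among the 48, a family whose classical members activate RNase L, had log2 fold changes of -0.37 (Oasl2), 0.07 (Oas3) and 0.96 (Oas2). Outside the 48, 5 further genes of the family, Oas1g, Oasl1, Oas1a, Oas1b and Oas1c, all had log2 fold changes below 0, from -2.51 to -0.19. None passed an unadjusted p of 0.05. The -2.51 of Oas1g (SE 1.24) came with 0 counts in Osmr-/- 2 and 5, and the authors' deposited table had -0.30. Oasl1, at 0 in Osmr-/- 1, had -1.68 (SE 1.04) against -0.90 in that table. Oas2 had 143, 26.0, 152, 291 and 319 in Osmr-/- and 31.2, 53.4 and 315 in WT, and overlapped from end to end (SE 0.719, adjusted p 0.504). Mx1 and Mx2, the GTPases that trap viral nucleocapsids, had 8 to 131 reads and 0 to 199 reads in Osmr-/- and 1 to 189 and 19 to 106 in WT. Mx2 averaged 107 normalised counts in Osmr-/- and 48.6 in WT, yet its log2 fold change was -0.14 by limma, with Osmr-/- 2 at 0 reads, and 1.14 by edgeR and by DESeq2. The gene annotation lists Mx2 as a polymorphic pseudogene. Rsad2, encoding the antiviral radical enzyme viperin, had a log2 fold change of 0.03. The RNA editor Adar had a log2 fold change of 0.11 and the translation-blocking kinase gene Eif2ak2 -0.26. Bst2, whose product tethers budding virus, had a log2 fold change of -0.46 and Isg20, an exonuclease gene, -0.36. Samhd1, which encodes a nucleotide-hydrolysing enzyme that limits retroviruses, had a log2 fold change of -0.18. These last 5 genes overlapped between genotypes.

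The ISG15, ubiquitin and ADP-ribosylation genes had the highest median of the 7 roles, 0.50, with 6 of 7 above 0. Isg15, the ubiquitin-like modifier, was low, with 45.3, 129, 24.5, 127 and 21.5 in Osmr-/- and 7.28, 19.3 and 74.5 in WT. All 5 Osmr-/- libraries were above the WT median, but only numbers 2 and 5 were above the highest WT library, WT 3. The log2 fold change was 1.30 with an SE of 0.725, the largest in size among members above 0, and the adjusted p was 0.368. Usp18, which removes ISG15 from proteins and damps the type I receptor, had 341, 251, 263, 342 and 280.1 in Osmr-/- and 63.6, 168 and 446 in WT (log2 fold change 0.71, SE 0.427). Its Osmr-/- values lay close together inside the broad WT range. Trim30a, which in mouse restrains Toll-like receptor signalling, had 2357, 1978, 2908, 3146 and 2111 in Osmr-/- and 1395, 1682 and 2635 in WT. WT 6 was far above the other WT libraries and above 3 Osmr-/- libraries (log2 fold change 0.50, SE 0.213, adjusted p 0.243).

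Parp9 and Dtx3l, which encode an ADP-ribosyltransferase and a ubiquitin ligase that work as a pair, had log2 fold changes of opposite sign. Parp9 had 373, 851, 1205, 455 and 565 in Osmr-/- and 339, 374 and 531 in WT, with Osmr-/- 3 highest and Osmr-/- 1 and 5 inside the WT range (log2 fold change 0.68, SE 0.302, adjusted p 0.258). Dtx3l had 469, 449, 717, 1208 and 910.4 in Osmr-/- and 644, 795 and 949 in WT (log2 fold change -0.20). Their exons overlap on opposite strands by 458 bases, and the strand setting of the counting was not given. Parp14, the third gene of this chromosome 16 group, had a log2 fold change of 0.20, and Trim25, the ubiquitin ligase that acts on RIG-I, had 0.16.

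Of the 7 interferon-inducible GTPase genes, which attack the vacuoles of intracellular pathogens, 6 had log2 fold changes above 0 and the median was 0.22, though 2 of the 6, Igtp and Irgm1, were just below 0 by edgeR and DESeq2. Gbp7 had 2332, 1501, 2731, 2429 and 1906 in Osmr-/- and 1333, 1464 and 1962 in WT. In 3 Osmr-/- libraries the level exceeded every WT library, and Osmr-/- 2 was near the WT median (log2 fold change 0.47, SE 0.207, adjusted p 0.255). Its neighbour Gbp3 had 244, 350.0, 429, 448 and 397 in Osmr-/- and 115, 257 and 376 in WT (log2 fold change 0.65, SE 0.351, adjusted p 0.346), while Gbp2, next on chromosome 3, had a log2 fold change of 0.10. On the same scale Irgm2 had 0.54, Igtp 0.22, Irgm1 0.08 and Iigp1 -0.34. Irgm1, known in mouse to protect stem cells from interferon-driven proliferation, had 1193, 1310.2, 1424, 1317 and 1362 in Osmr-/- and 744, 1404 and 2050.3 in WT. The Osmr-/- values spread by 85.0 (SD, n = 5) around their mean and the WT values by 503 (SD, n = 6).

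Among the remaining genes, Ifi44 had 1175, 1079.6, 1342, 2236 and 1078 in Osmr-/- and 611, 939 and 1232 in WT (log2 fold change 0.56, SE 0.269, adjusted p 0.284). Osmr-/- 5 was highest, at 2236. Xaf1, a binding partner of an apoptosis inhibitor, had 2245, 2178, 1619, 2228 and 1147 in Osmr-/- and 984, 1146 and 2159.6 in WT (log2 fold change 0.45, SE 0.274, adjusted p 0.410). Ifi35, whose product pairs with the protein NMI, was lower than the WT median in all 5 Osmr-/- libraries, with 1117, 1167, 695, 1269 and 665, against a WT lowest, median and highest of 935, 1361 and 1671. Its log2 fold change of -0.46 (SE 0.242, adjusted p 0.334) went with groups that overlapped. Rtp4, which encodes a chaperone of cell-surface receptors, ranged from 1294 to 4050 in Osmr-/- and from 1471 to 5200 in WT, and had a log2 fold change of -0.03.

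Single libraries stood apart over the list as a whole. Osmr-/- 5 had 42 of 48 genes above their mean over the 11 libraries, with a median deviation of 0.52 on the log2 scale, and the other Osmr-/- libraries had 21 to 27. WT 5 had 14, with a median deviation of -0.40, WT 4 had 18, and WT 6 had 31. The medians over all genes in the same libraries were 0.03 to 0.12. Within groups the members' median SD was 0.52 on the log2 scale, and that of all tested genes 0.71. The 6 members with an SD over 1 were Ifit3, Irf8, Mx2, Mx1, Oas2 and Isg15.

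**Figure D4:**
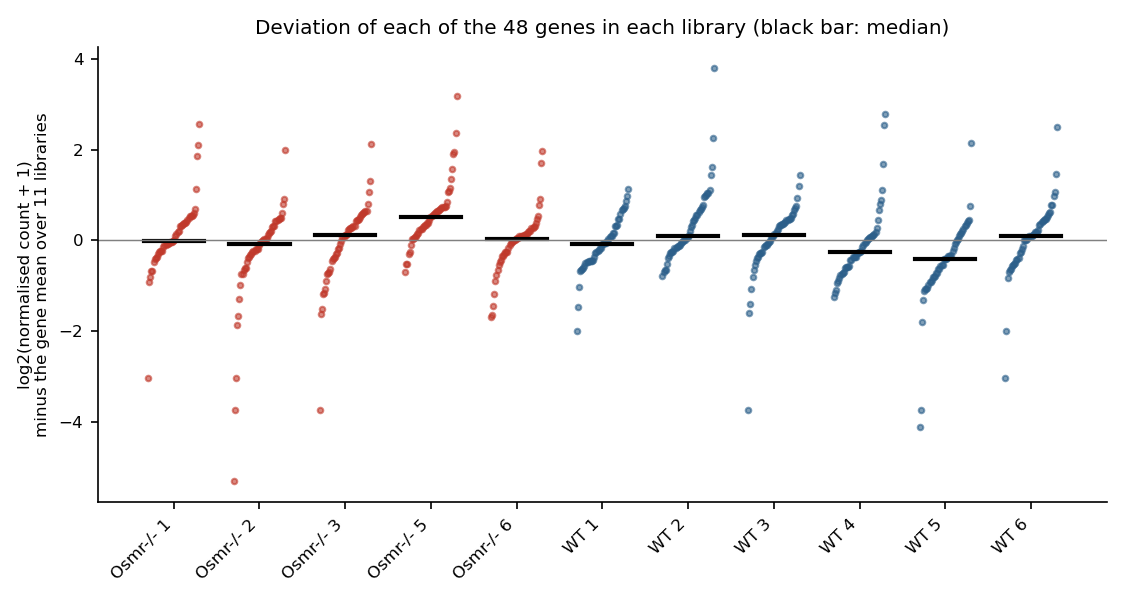
Deviation of each of the 48 genes from its own mean over 11 libraries, in log2(normalised count + 1), one column of points per library, Osmr-/- first, with the median as a bar. Osmr-/- 5 has the highest median (0.52) and WT 5 the lowest (-0.40).

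Libraries numbered 1 to 3 and those numbered 4 to 6 stood apart across all genes, although the labels do not call the numbers a batch. With this number set as a covariate, 1 member, Ifitm1, was called higher (log2 fold change 1.00, adjusted p 0.0329) and 0 lower, against 0.996% and 1.53% of all genes. Between the number sets themselves, 2.61% of all genes were higher in numbers 4 to 6 and 4.69% lower at an adjusted p under 0.05, and 0 members were called. The lowest adjusted p by limma was 0.0557, that of Ifitm1, with a log2 difference of -0.63. At an unadjusted p under 0.05, 5 members were higher in numbers 4 to 6 and 9 lower. The share over all genes at that level is not given here. Within numbers 1 to 3 the members had a median genotype difference of -0.12, with 21 of 48 above 0, and within numbers 4 to 6 one of 0.48, with 36 of 48 above 0. Over all genes these medians were -0.07 and 0.00. The difference between the sets, tested as an interaction for each gene, was called for 0 members and 0% of all genes. At an unadjusted p under 0.05, 6 members (12.5%) passed, against 9.85% of all genes. The 6, Irf7, Oasl2, Ifitm3, Dtx3l, Iigp1 and Irgm1, all had a more positive difference in numbers 4 to 6.

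For Oasl2 the log2 fold change was -1.26 in the first set and 0.67 in the second. That of Irf7 was -1.92 in the first set and 0.18 in the second. Ifitm1 was above 0 in both, at 0.84 and 1.20, and Ifih1 at 0.55 and 0.73. In all, 18 members were above 0 in both sets, 9 below 0 in both, 18 below 0 in numbers 1 to 3 only and 3 above 0 in numbers 1 to 3 only. The upper set held 2 Osmr-/- libraries, of which 1 was Osmr-/- 5, against 3 WT libraries that included WT 4 and WT 5.

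**Figure D5:**
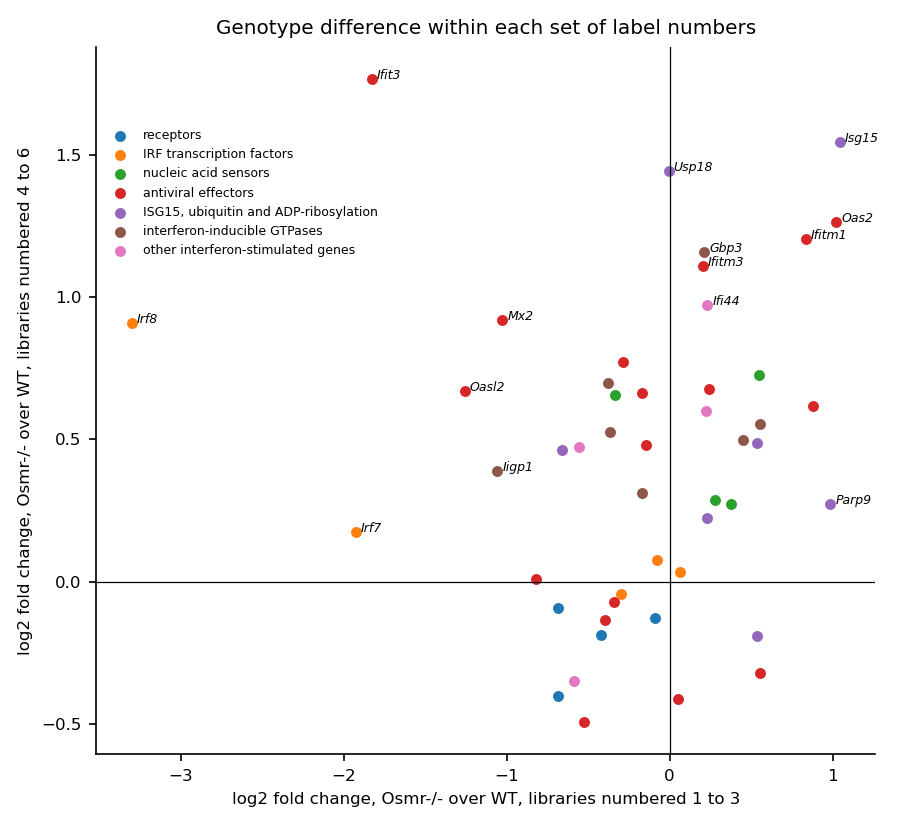
The log2 fold change of each gene, Osmr-/- over WT, within libraries numbered 4 to 6 (vertical) against libraries numbered 1 to 3 (horizontal), coloured by role, with genes beyond about 1 in either set named. Points in the upper left, such as Irf7, Oasl2, Iigp1 and Ifit3, change sign between the sets, and Ifitm1, Isg15 and Oas2 lie above 0 in both.

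The response element letters were common in the members' promoter windows. Of the 48 genes, 38 had a RefSeq window. The ISRE core was in 19 of them, against 3.99% of 27025 genes with a window and 3.91% of the tested genes, and the GAS core in 16 (42.1%), against 9.55% and 8.26%. The ISRE core was in 6 of 6 GTPase genes, 2 of 2 sensors and 8 of 14 effectors, in 1 of 5 regulatory factors (Irf2), and in none of the 4 receptors. Members with the ISRE core had a median log2 fold change of 0.22, with 16 of 19 above 0, and those without it had -0.18, with 6 of 19 above 0. Over all tested genes with a window, the medians were -0.06 with the ISRE core and -0.08 without it. The contrast among the members was not tested. Of those above 0 with the core, Gbp2, Igtp, Irgm1, Oas3 and Rsad2 changed sign in at least 1 other setting. So did Eif2ak2 and Ifit3, below 0 with the core, and Adar, Ifnar1 and Irf9 without it. Several members with the core are neighbours, such as Gbp2, Gbp3 and Gbp7, and are not independent. For the GAS core the members' medians ran the other way, -0.16 with it and 0.13 without. Ifitm1, the member with the lowest p, has no match in its window, which lies inside the gene as GENCODE places it. Ifih1, Gbp7, Trim30a and Ifitm3 have an ISRE match in theirs. Ifit2, also at an unadjusted p under 0.05, had no ISRE core in either of its windows. It had a GAS core at -241 in 1 of them, and Parp9 had no window. A match is a description of letters, not of a bound factor.

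No gene of the signalling list, 42 genes that induce or transmit the interferon signal, passed an adjusted p of 0.05 among its 36 tested members (22 above 0, 14 below, median log2 fold change 0.15). At an unadjusted p under 0.05, 6 were higher and 3 lower, where the shares over all genes were 7.5% and 10.5%. Nlrc5, the activator of class I antigen presentation genes, had 598, 681, 964, 609 and 812 in Osmr-/- and 233 to 546 in WT, with no overlap (log2 fold change 1.02, SE 0.269, adjusted p 0.105 by limma). Irak1 and Ep300 (log2 fold change 0.69, adjusted p 0.149) also lay wholly above WT, and Pias4 wholly below. Over all genes the shares without overlap were 1.09% higher and 1.42% lower. The authors' deposited table had 3 genes of the list higher and 1 lower at an adjusted p under 0.05, against 1.67% and 2.79% of the genes it tested, namely Nlrc5 (0.0129), Herc6 (0.0110) and Irak1 (0.0318) as higher and Pias4 (0.0120) as lower. Herc6, the mouse ligase for ISG15, had a log2 fold change of 0.95 (adjusted p 0.105) and Irak1, a kinase of Toll-like receptor signalling, 0.90 (adjusted p 0.117). Pias4, an inhibitor of STAT proteins, had a log2 fold change of -1.58 and the ISG15-conjugating enzyme gene Ube2l6 had -1.01. Stat2, a subunit of the same complex as Irf9, had 345 ± 102 in Osmr-/- and 190 ± 71.6 in WT (SD, n = 5 and 6, log2 fold change 0.88, adjusted p 0.200). The receptor-bound kinase genes Jak1 and Tyk2 had log2 fold changes of 0.28 and 0.24. The 20 interferon ligand genes were not tested, since none passed the filter, and 12 had no read in any library.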

How the data were processed

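Polyadenylated RNA of 1000 sorted cells per mouse was measured in 5 Osmr-/- and 6 WT libraries. The labels name 12 samples, and Osmr-/- 4 is not analysed here. The reads, per the submitters' processing notes, went through Trimmomatic 0.36.6, FastQC 0.72, HISAT2 2.1.0 (mm10), HTSeq 0.9.1 and the DESeq2 wrapper 2.11.40.6. The annotation and the strand setting of the counts were not given in the sources used here. Deposited signal is a normalised count, the authors' reads divided by a size factor. The authors also deposited log2 scale values (variance stabilised) and a comparison table with log2 fold change, Wald score and p-value. Dividing by the smallest step of each library returned whole reads within 1.4e-09 for every value. Intervals of totals and the floor of 3 reads cover counting error only, since amplified reads without molecular tags do not count molecules.

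The comparison used log2(normalised count + 1) for 13358 genes (5 or more libraries at 10 or more normalised counts), with limma 3.58.1 (trend) in R 4.3.3, two-sided, adjusted by Benjamini-Hochberg over all genes tested, threshold 0.05. Log2 fold changes on this scale are less certain for low genes. The added 1 shrinks them, while libraries at 0 reads can enlarge them or turn their sign. Irf8 had -1.58 on this scale and -0.49 by DESeq2, and Mx2 had -0.14 and 1.14. All adjusted p-values are from this fit unless another tool is named. Osmr was tested by exact permutation. The recovered reads were tested with DESeq2 1.42.0 and edgeR 4.0.16 as alternatives, and the models were tested on simulated data. Libraries come from different mice, so p-values measure the spread between mice within this experiment. Named genes were the 48 members, Osmr, Stat2, Jak1 and Tyk2, genes past the threshold and up to 6 of lowest p in each pathway list, and up to 3 members of each marker list. A further named gene is not reported here. The members and lists were chosen with earlier results of these data known. Exon lengths and positions came from GENCODE M21 on GRCm38, and promoter windows from RefSeq on GRCm38.p6, read with Python 3.11.15.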

Additional observations from a re-analysis of the deposited data

Results flagged for a closer look

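In 2 cases a value stood apart from the rest of its group by more than the gap allowed by Dixon's criterion, of 98 groups examined, where chance gives about 1 in 20. Oasl2 had 889 normalised counts in Osmr-/- 5, against 341 to 449.9 in the other Osmr-/- libraries, the library in which 42 of 48 genes were above their mean. Trim30a had 2635 in WT 6, against 1395 to 1703 in the other WT libraries. Leaving out WT 6 gave a log2 fold change of 0.62 for Trim30a, against 0.50 with every library.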

How the results depend on the processing

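Depth limits Irf8, Ifit3, Mx1 and Mx2, which have libraries near or below the floor. Isg15 was low too, with 14 to 123 reads. Over all genes, 3 were called (unadjusted p under 0.05 in 2401), against 55 with a pseudocount of 10, 66 on the authors' variance stabilised values, 678 with DESeq2 (and 2 with edgeR) on the recovered reads and 337 with the number set as a covariate. No gene was called without the filter, with the filter at 50, with the replicate block, in libraries numbered 1 to 3 only or in those numbered 4 to 6 only (0 each, with 2779, 2122, 2418, 2933 and 1384 at an unadjusted p under 0.05), and leaving out 1 library gave 0 to 125. The cause was not tested. Among the members, 1 was called with DESeq2 and 1 with the covariate (Ifitm1 in both), and 0 in every other setting run, where 3 to 10 had an unadjusted p under 0.05. The fits within each number set were added after the data were seen. There the members' median came to -0.12 for the lower set and 0.48 for the upper set, against 0.05 to 0.20 when 1 library was left out. For Osmr, leaving out 1 library gave -0.33 to 0.28. In those fits Irf7 turned to 0.18 and Irf8 to 0.91 in the upper set and Usp18 to -0.0062 in the lower set, among the sign changes counted in the report. Apart from those fits, of 1000 member values 48 changed sign, in 14 members, all within 0.39 of 0 with every library. These were Ifit3 at 0.14, Gbp2 at -0.0090 and Irgm1 at -0.058 with the replicate block; Mx2 at 0.39 (pseudocount 10), 0.31 (variance stabilised), 1.14 (edgeR) and 1.14 (DESeq2); Igtp at -0.071 (edgeR) and -0.065 (DESeq2), and Irgm1 at -0.017 and -0.014 in those tools. Leaving out 1 library gave Adar -0.16 to 0.29, Eif2ak2 -0.46 to 0.086, Gbp2 -0.11 to 0.22, Ifit3 -1.17 to 0.50, Ifnar1 -0.31 to 0.0083, Igtp -0.16 to 0.47, Irf9 -0.13 to 0.065, Irgm1 -0.072 to 0.22, Mx1 -1.04 to 0.28, Mx2 -0.75 to 1.17, Oas3 -0.26 to 0.40, Rsad2 -0.25 to 0.28, Rtp4 -0.22 to 0.19, Zbp1 -0.13 to 0.28. Same-numbered libraries of the genotypes correlated in their deviations at 0.02 to 0.10, none over 0.1, so the numbers were not taken as pairs. Only 1 of 5 Osmr-/- libraries correlated best with its own number. The best WT numbers for Osmr-/- 1, 2, 3, 5 and 6 were 2, 3, 3, 4 and 4, each within the same number set. The replicate block left out WT 4, which has no Osmr-/- partner.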

Other observations

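A further list of 92 interferon-stimulated genes, of which 84 were found and 77 tested, had 34 above 0 and 43 below and a median log2 fold change of -0.14, against -0.05 for all tested genes. None passed an adjusted p of 0.05 with limma, and at an unadjusted p under 0.05 there were 5 higher and 3 lower, against 7.5% and 10.5% of all tested genes. At an adjusted p under 0.05, 0 were higher and 1 lower in the authors' deposited table, against 1.67% and 2.79% of the genes it tested. That gene, Rnf114, a ubiquitin ligase gene, had 389 ± 73.3 normalised counts in Osmr-/- and 662 ± 119.9 in WT (SD, n = 5 and 6), with all Osmr-/- libraries below all WT libraries (log2 fold change -0.76, SE 0.231, adjusted p 0.133). Lgals9, which encodes galectin-9, had 2572 ± 913 in Osmr-/- and 5432 ± 3062 in WT (log2 fold change -0.97, adjusted p 0.184), and its highest values were in WT 1 and WT 2. Ifi27l2a had 409 ± 163 in Osmr-/- and 214 ± 119.6 in WT (log2 fold change 0.98, adjusted p 0.201). Rnf213, Ifi203 and Daxx had 0.51, 0.57 and -1.03.

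B2m, the light chain of class I antigen-presenting molecules and a gene chosen after its values were seen, put the 6 WT libraries in the same order as Ifitm1 did. It had 169411, 196273, 158549, 103499 and 93943 normalised counts in Osmr-/- 1, 2, 3, 5 and 6, and 38164, 84567 and 172832 as the WT lowest, median and highest. WT 4 was lowest and WT 3 highest for both genes (B2m log2 fold change 0.86, SE 0.395, adjusted p 0.267).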
